A study of Mus musculus with 2 samples.

Results

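Genes that give a neuron its transmitter identity were followed in a map of Suz12 in differentiating mouse embryonic stem cells. They are the GABA genes Gad1, Gad2 and Slc32a1, the acetylcholine genes Chat and Slc18a3, the glutamate genes Slc17a6, Slc17a7 and Slc17a8, and the catecholamine genes Th and Slc6a3. They are 10 of 21631 protein-coding genes on the 20 chromosomes with peaks. A member was counted as having a peak when a Suz12 peak overlapped the RefSeq gene (GRCm38) or lay within 10 kb of it. The peak list comes from 1 library of wild-type E14 cells, a mouse embryonic stem cell line, grown in serum medium, then given 1 µM all-trans-retinoic acid without leukemia inhibitory factor for 72 h. The series also holds a library of Suz12[-/-] cells at 0 h, made with the same antibody and not analysed here. The 2 libraries differ in genotype and in time at once and neither has a replicate, so no comparison of conditions was made, and no replicate error or p-value is given.

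Suz12 is a core subunit of Polycomb Repressive Complex 2, which methylates histone H3 on lysine 27 and is known for binding CpG-rich starts of silent developmental genes. A neuron that releases GABA makes it from glutamate with a glutamate decarboxylase and loads it into vesicles, a cholinergic neuron does the same with choline acetyltransferase and its own vesicle transporter, and a glutamatergic neuron is usually recognised by its vesicle transporter. Dopamine neurons are marked by tyrosine hydroxylase and by a transporter that returns dopamine from outside the cell, so Slc6a3 acts at the plasma membrane and not at the vesicle. In a pool of cells, a peak carried by few cells and one with little Suz12 in each cell cannot be told apart.

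The bases just before the gene start are shown for 8 members because their CG dinucleotides, which make up CpG islands, were counted at each start and set against the Suz12 peaks. Each line holds the 250 bases before the first start that RefSeq lists for the gene (GRCm38.p6), with each CG in capitals. Some transcripts of Gad1 and Slc6a3 begin farther upstream, since the outer end of each of these genes lies before the printed bases. The starts of the first 5 genes lay inside a peak and those of the last 3 did not.
Gad1 (chr2:70561879-70562128, plus strand): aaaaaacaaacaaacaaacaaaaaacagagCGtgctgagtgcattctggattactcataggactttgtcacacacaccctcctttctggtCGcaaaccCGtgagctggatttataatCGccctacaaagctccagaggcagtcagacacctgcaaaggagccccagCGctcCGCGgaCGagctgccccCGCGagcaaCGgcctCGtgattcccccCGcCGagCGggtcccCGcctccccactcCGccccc
Slc18a3 (chr14:32464851-32465100, minus strand): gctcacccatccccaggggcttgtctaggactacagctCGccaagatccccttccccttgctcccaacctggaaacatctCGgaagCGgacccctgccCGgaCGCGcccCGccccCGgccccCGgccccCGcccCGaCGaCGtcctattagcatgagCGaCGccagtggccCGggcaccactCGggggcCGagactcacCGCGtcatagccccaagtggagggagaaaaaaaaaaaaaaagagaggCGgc
Chat (chr14:32465910-32466159, minus strand): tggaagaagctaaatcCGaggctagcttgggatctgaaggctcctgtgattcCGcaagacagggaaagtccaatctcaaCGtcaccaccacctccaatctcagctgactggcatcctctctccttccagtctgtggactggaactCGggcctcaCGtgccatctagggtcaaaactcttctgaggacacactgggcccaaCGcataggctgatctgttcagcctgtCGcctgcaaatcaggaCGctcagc
Slc17a7 (chr7:45163671-45163920, plus strand): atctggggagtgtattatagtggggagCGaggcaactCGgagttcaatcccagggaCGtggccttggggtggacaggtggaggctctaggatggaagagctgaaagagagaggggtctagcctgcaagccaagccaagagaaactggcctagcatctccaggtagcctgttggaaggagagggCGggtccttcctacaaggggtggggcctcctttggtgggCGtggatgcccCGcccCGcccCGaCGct
Slc6a3 (chr13:73536497-73536746, plus strand): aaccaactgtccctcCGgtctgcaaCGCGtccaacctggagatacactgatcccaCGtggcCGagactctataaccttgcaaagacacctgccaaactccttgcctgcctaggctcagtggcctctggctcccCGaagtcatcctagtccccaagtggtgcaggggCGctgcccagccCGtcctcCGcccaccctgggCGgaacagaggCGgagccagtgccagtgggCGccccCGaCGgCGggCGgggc
Slc17a6 (chr7:51621580-51621829, plus strand): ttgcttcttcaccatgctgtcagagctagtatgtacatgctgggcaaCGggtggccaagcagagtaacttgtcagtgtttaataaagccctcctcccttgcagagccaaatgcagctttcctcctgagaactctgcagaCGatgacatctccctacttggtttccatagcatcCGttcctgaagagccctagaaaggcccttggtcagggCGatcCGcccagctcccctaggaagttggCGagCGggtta
Slc17a8 (chr10:89621250-89621499, minus strand): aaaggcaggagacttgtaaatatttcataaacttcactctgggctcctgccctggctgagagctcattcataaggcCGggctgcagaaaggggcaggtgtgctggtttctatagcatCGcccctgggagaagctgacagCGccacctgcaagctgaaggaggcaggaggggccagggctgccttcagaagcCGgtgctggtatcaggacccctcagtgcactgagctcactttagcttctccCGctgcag
Th (chr7:142899996-142900245, minus strand): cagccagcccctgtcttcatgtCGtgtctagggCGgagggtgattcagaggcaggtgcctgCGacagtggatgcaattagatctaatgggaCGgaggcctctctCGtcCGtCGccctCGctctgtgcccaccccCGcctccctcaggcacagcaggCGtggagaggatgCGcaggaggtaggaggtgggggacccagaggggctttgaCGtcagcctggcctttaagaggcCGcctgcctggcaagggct

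Suz12 peaks lay at every GABA and acetylcholine member, at 1 of 3 glutamate members and at 1 of 2 catecholamine members. In all, 7 of 10 members (70.0%, exact 95% interval 34.8 to 93.3) had a peak within 10 kb, against 15.9% of all protein-coding genes. The interval covers counting error only and treats genes as independent, whereas Chat and Slc18a3 share their peaks. The members were chosen with earlier results of these data known, so the difference from the background was not tested. All 7 genes had a peak that overlapped the gene itself, which held for 12.3% of all protein-coding genes. The members without a peak were Slc17a6, Slc17a8 and Th.

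The same 7 members were counted at every other distance tried, while the background widened. They had a peak within 2.5 kb, within 5 kb and within 50 kb, against 13.1%, 14% and 27.8% of all protein-coding genes. They also had one within 2.5 kb of a gene end, against 11.7%, and when each peak counted for its nearest gene only, against 12.3%. In the nearest-gene setting the main peak of Chat and Slc18a3 was equally near to both and counted for both, so it could not separate these genes. With peaks scored at or above the median of the list, 6 members had one within 10 kb, against 8.71% of all protein-coding genes, and with peaks scored at least 2 times the lowest score also 6, against 12.2%. Slc6a3 was the member lost in both cases.

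Long genes offer more room for a peak, so the members were also set beside genes of like length. Of the 6 members of 40 kb or longer, 4 had a peak (Gad1, Gad2, Chat and Slc6a3), against 22.3% of 6001 genes of that length. Slc17a7, of 12219 bp, had a peak, as did 13.4% of genes between 10 and 40 kb. Slc18a3 and Slc32a1 had one and Th did not among the 3 members under 10 kb, against 13.5% of genes that short.

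The GABA genes carried the widest single peaks of the set, each over the listed gene start. The narrowest of these, 4533 bp at Gad2, was close to the 4440 bp of the main peak at Chat and Slc18a3. Gad1 encodes a glutamate decarboxylase and spans 70561303 to 70602014 on chromosome 2. Its only peak ran for 9177 bp, from 70560064 to 70569240, and 1.6% of the 3373 peaks in the list were at least as wide. It began 2065 bp before the start and ended 7111 bp after it, over the first part of the gene. It also covered an end of the antisense gene Gad1os, a long non-coding RNA, and the peak list does not say to which of the overlapping genes the signal belongs.

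Slc32a1 encodes the transporter that loads GABA and glycine into vesicles and lies on chromosome 2 from 158607260 to 158615747. Its peak was 8197 bp wide, from 158608959 to 158617155. This peak reached across the far end of the gene, and 80.0% of the gene lay inside it. The upstream outer end of the gene lay outside the peak, which covered the listed start. The peak also overlapped the long non-coding RNA gene Gm14204 at the upstream side. Of all peaks in the list, 2.13% were at least as wide.

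Gad2, the gene of the second glutamate decarboxylase, lies on chromosome 2 from 22621015 to 22693877. Its main peak was narrower than those of Gad1 and Slc32a1, at 4533 bp from 22620567 to 22625099, and covered 5.61% of this long gene. A second, small peak of 906 bp lay 827 bp outside the gene on its upstream side, with a score of 255.14. The next protein-coding gene on that side, Myo3a, ended 2763 bp from Gad2 and was overlapped by neither peak.

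Each deposited peak has a score, on a scale that the file does not state, and the scores are the authors' own values. The list has a median score of 572.11 and a pile-up of 325 peaks at 3100, so members that share this value cannot be ranked by it. The main peaks of Gad1, Gad2 and Slc32a1 all scored 3100, and 10.5% of peaks scored that or more. Counting genes, 5 of the 10 members had a peak of 3100 or more within 10 kb, namely these 3 genes with Chat and Slc18a3, against 2.02% of all protein-coding genes.

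The 2 acetylcholine genes form a single locus and were covered by a single main peak. Chat encodes choline acetyltransferase, which makes acetylcholine, and spans 32408203 to 32465909 on the minus strand of chromosome 14. Slc18a3, which encodes the vesicular acetylcholine transporter, lies wholly inside Chat, from 32462437 to 32464850. The peak ran for 4440 bp, from 32461795 to 32466234, with a score of 3100. It held 100% of Slc18a3 and the starts of both genes, and reached 325 bp before the start of Chat and 1384 bp before that of Slc18a3. A weak second peak of 758 bp with a score of 175.74 lay within Chat, 1253 bp beyond the far end of Slc18a3.

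Within this shared peak the starts differed in composition. The 300 bases around the start of Slc18a3 held 27 CG dinucleotides, the most of any member, and the observed over expected ratio of CG was 0.804. The 300 bases around the start of Chat held 10 CG dinucleotides, with a ratio of 0.436. The list holds no value that divides the peak between the genes.

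**Figure D1:**
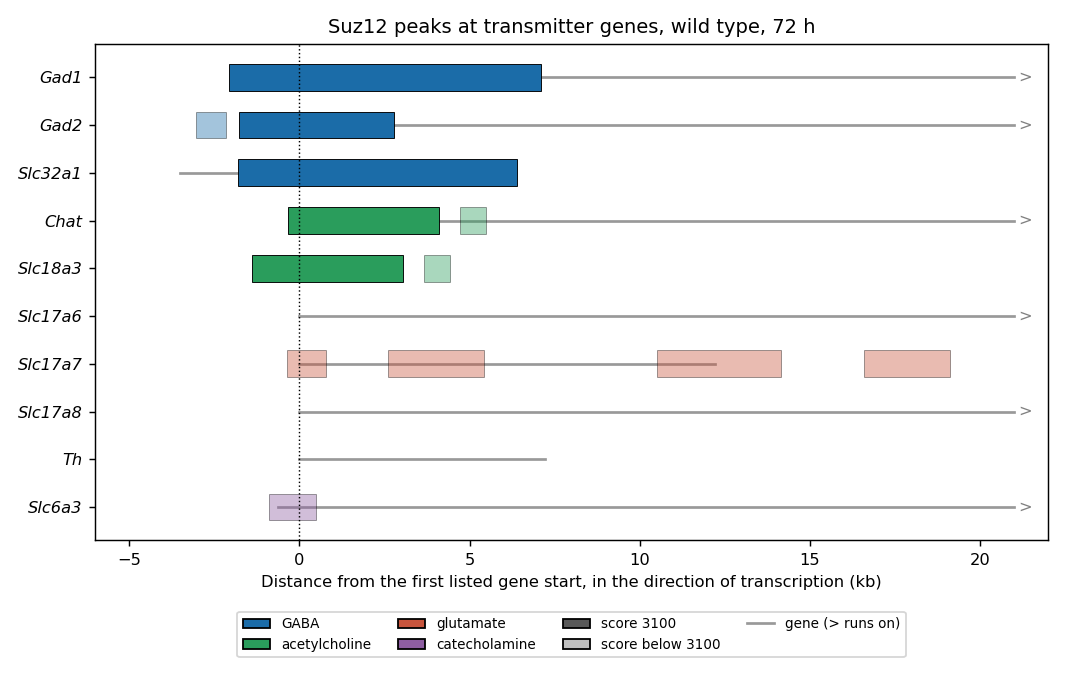
Suz12 peaks (boxes) and genes (grey lines) for the 10 members, by distance in kb from the first listed gene start in the direction of transcription; colour gives the transmitter and full colour a score of 3100. Peaks of score 3100 sit over the starts of the 5 GABA and acetylcholine genes, Slc17a7 has 4 weaker peaks, Slc6a3 has 1, and Slc17a6, Slc17a8 and Th have none; the main and the small peak at Chat and Slc18a3 are the same 2 peaks drawn once for each gene.

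The 3 vesicular glutamate transporter genes differed from each other. Slc17a7, the form that prevails in the cerebral cortex, had 4 peaks within 10 kb, the most of any member. Slc17a6, the form that prevails in thalamus and brainstem, and Slc17a8, found in scattered neurons that often release a second transmitter, had none. The nearest peak to Slc17a6 lay 1644647 bp away, and only 7.0% of protein-coding genes were as far or farther from a peak. The nearest peak to Slc17a8 lay 228566 bp away, a distance that 44.6% of genes reached or passed.

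The peaks at Slc17a7 were arranged differently from those at the GABA and acetylcholine genes. Slc17a7 lies on chromosome 7 from 45163921 to 45176139. The peak over its start was 1138 bp wide, from 45163554 to 45164691, and had the lowest score of the 4, 263.69. A second peak of 2810 bp, from 45166532 to 45169341 inside the gene, scored 679.41. The strongest, of 3647 bp with a score of 1832.86, lay across the far end of the gene from 45174428 to 45178074.

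The outer peaks at Slc17a7 also lie at its neighbours. The midpoint of the strongest peak fell in the 210 bp between Slc17a7 and Gfy, slightly nearer to Gfy, and the peak overlapped both genes. The fourth peak, of 2523 bp and score 968.50, lay 4378 bp outside Slc17a7 and overlapped Pth2. With 5 protein-coding genes within 10 kb, Slc17a7 had the most neighbours of the members. This bears on its covered length of 10118 bp, the highest of the 10, since 5293 bp of it lay inside the gene.

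The catecholamine genes showed little Suz12 in this list. Th encodes tyrosine hydroxylase, the rate-limiting enzyme of catecholamine synthesis, and spans 142892779 to 142899995 on chromosome 7. It had no peak, and the nearest lay 66920 bp away; 68.3% of protein-coding genes were as far or farther from a peak. Slc6a3, the dopamine transporter gene on chromosome 13 from 73536128 to 73578672, had 1 peak of 1365 bp, from 73535861 to 73537225. It lay over the start and scored 279.83, a value that 74.8% of peaks reached or passed.

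No member lay near the limit of 10 kb. The farthest peak counted lay 4378 bp from its member, Slc17a7, and the nearest peak not counted lay 66920 bp from its member, Th. Depth is unknown because the list gives no reads, so a member without a peak may hold signal under the authors' threshold.

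Bases inside peaks within each gene and 10 kb to either side order the members as Slc17a7 (10118 bp), Gad1 (9177 bp), Slc32a1 (8197 bp), Gad2 (5439 bp), Chat and Slc18a3 (5198 bp each) and Slc6a3 (1365 bp), with 0 bp at Slc17a6, Slc17a8 and Th. With 1 library there is no spread against which neighbours in this order could be told apart. The median over the 3437 protein-coding genes with a peak within 10 kb was 2052 bp. Slc6a3 lay below that median and the other 6 above it. As many bases as at Gad1 were covered at 0.707% of all protein-coding genes, and as many as at Gad2 at 1.98%.

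**Figure D2:**
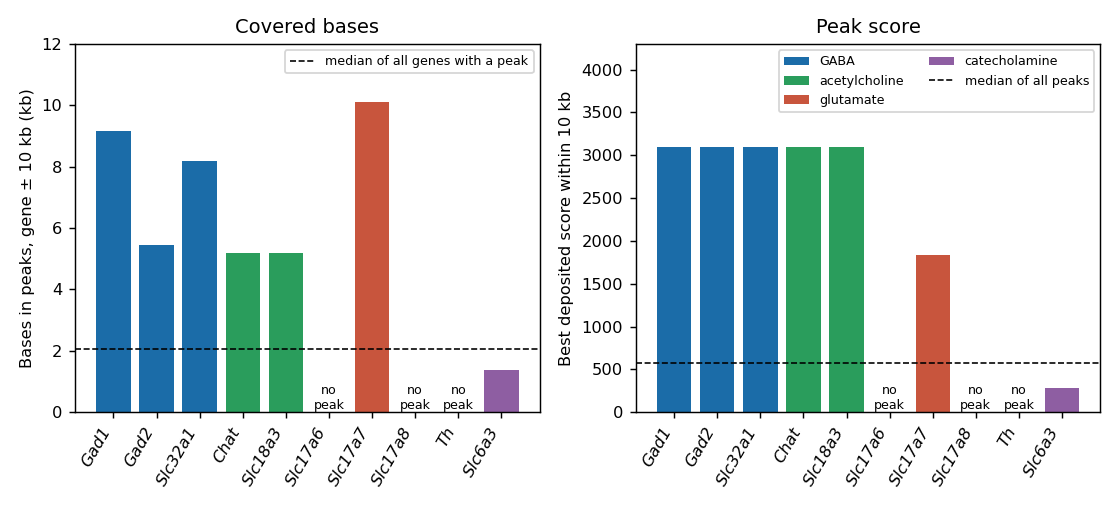
Left, bases in Suz12 peaks (kb) within each gene and 10 kb to either side; right, the best deposited score within 10 kb, with bars coloured by transmitter and dashed lines at the median of genes with a peak (2052 bp) and of all peaks (572.11). The 5 GABA and acetylcholine genes share a score of 3100, Slc17a7 has the most covered bases but a lower score, and Slc6a3 lies under both lines.

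At the members with a peak over the start, Suz12 mostly reached farther into the gene than ahead of it. All 7 members with a peak had a listed start inside it, against 8.57% of 17274 protein-coding genes with a listed start. The reach past the start was 7111 bp at Gad1, 6397 bp at Slc32a1, 4114 bp at Chat, 3055 bp at Slc18a3, 2772 bp at Gad2, 770 bp at Slc17a7 and 478 bp at Slc6a3. Ahead of the start it was between 325 bp at Chat and 2065 bp at Gad1. The reach past the start exceeded that ahead of it at 6 of the 7, the exception being Slc6a3 with 886 bp ahead. Over all 1687 listed starts inside a peak, the medians were 1313 bp past and 641 bp ahead of the start, and the reach past the start was the longer one at 81.0%, so this arrangement is common in the list.

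The number of CG dinucleotides in the 300 bases at the start, 250 before and 50 after, separated the glutamate genes without a peak from the members with one. The gap was narrow, 10 at Chat against 8 at Slc17a6, and in the 250 bases before the start alone it was 8 against 7. The 7 member starts inside a peak held between 10 (Chat) and 27 (Slc18a3) CG dinucleotides. Between these were Slc17a7 with 13, Gad2 with 14, Slc32a1 with 17, Slc6a3 with 20 and Gad1 with 21. RefSeq lists a pair of starts each for Slc17a6, with 8 and 3, and for Slc17a8, with 7 and 6, and none of these 4 starts lay in a peak. Th was the exception, with 15 CG dinucleotides and no peak, more than at Chat, Slc17a7 or Gad2.

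Across all protein-coding genes, starts inside a peak held a median of 22 CG dinucleotides and starts outside peaks a median of 12. Of starts with 0 to 4 CG dinucleotides, 0.737% lay in a peak, and of those with 5 to 9, 5.02%. The share was 10.8% with 10 to 14, 11.3% with 15 to 19, 11.9% with 20 to 24 and 13.6% with 25 or more. The starts of Slc17a6 and Slc17a8 thus fall in the classes where peaks were rarest, while the start of Th falls in a class where 11.3% of starts had one. The members inside peaks were not especially CG-rich for starts in a peak, since 6 of 7 were below the median of 22. All of them except Chat were above the median of 12 for starts outside peaks.

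**Figure D3:**
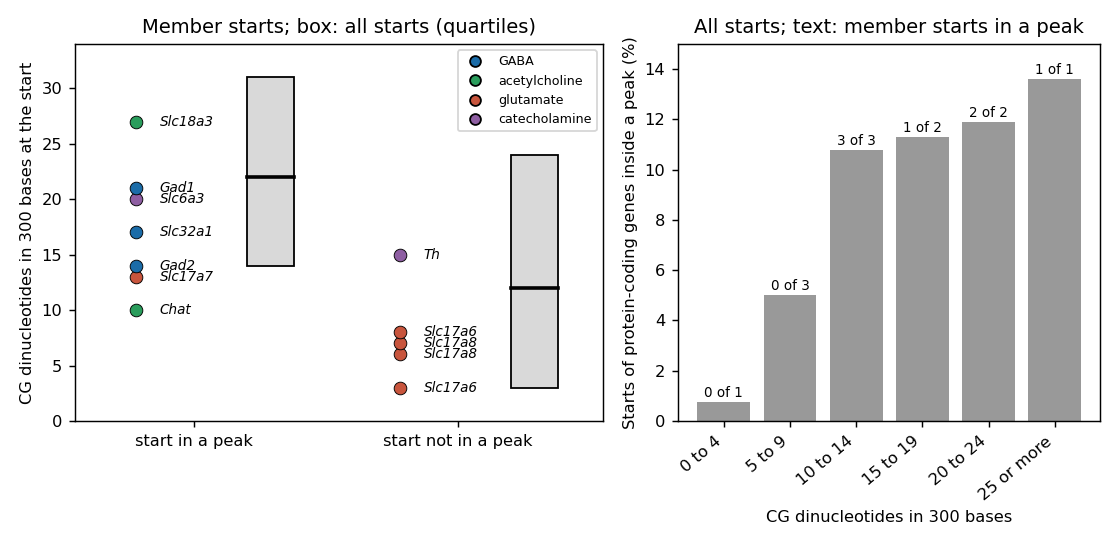
Left, CG dinucleotides in the 300 bases at each member's listed starts, by whether the start lies in a Suz12 peak, with grey boxes for the quartiles and median of all protein-coding starts; right, the percentage of all such starts inside a peak by CG count, with the number of member starts in a peak above each bar. Member starts in a peak hold 10 to 27, and the 5 starts not in a peak hold 3 to 8 apart from Th with 15.

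Short promoter motifs were searched on both strands of the same 300 bases, as a description of the letters and not of binding. The GC box GGGCGG was present at Gad1, Slc18a3, Slc17a7, Slc6a3, Slc17a6 and Th, members with and without a peak alike, and at 46.7% of all 21045 listed starts. The CRE letters TGACGTCA, known in the Th promoter as a site for cAMP-responsive factors, were found at Th alone among the members, and at 2.26% of all starts. They begin at base -45 from the start and are within the line printed for Th. CCAAT was found at Gad2 and Chat and at 38.5% of all starts, and TATAAA at Gad1 and at 12.7% of all starts. None of these 4 motifs contains another.

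Other genes that make, load, recover or break down these and related transmitters had peaks at a share near the background. Of 36 such genes, 8 (22.2%, 10.1 to 39.2) had a peak within 10 kb, against 15.9% of all protein-coding genes, which lies inside the interval. Their best scores ran from 353.19 to 1833.39, below the 3100 of the GABA and acetylcholine members and above the 279.83 of Slc6a3. A peak with a score of 3219.64 lay just past the 10 kb limit, 10529 bp from Slc6a5. With GABA and glycine, 3 of 8 genes had a peak. They include Slc6a5, a glycine transporter (best score 1833.39, with 3 peaks over the gene), and the GABA uptake gene Slc6a11 (1007.87). The GABA-degrading enzyme gene Abat was among the 5 without. The difference between the members and these genes was not tested, since both were chosen with earlier results known.

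For acetylcholine, 1 of 4 genes had a peak, against 15.9% of all protein-coding genes, which lies inside the interval of 0.631 to 80.6%. The gene was Ache, which breaks acetylcholine down, with a peak of 3013 bp and score 1728.56. Slc5a7, the choline transporter gene that supplies Chat with its substrate, had none. For glutamate, 2 of 8 had one, with an interval of 3.19 to 65.1% that also includes 15.9%. They were the uptake genes Slc1a2 (479.68) and Slc1a1 (445.65), and Gls2, which encodes a glutaminase, had none.

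For catecholamines, 1 of 11 further genes had a peak, against 15.9% of all protein-coding genes, which lies inside the interval of 0.23 to 41.3%. It was Slc6a2, the noradrenaline transporter gene, with a peak of 2020 bp and score 893.33. The genes of the synthesis steps after Th, namely Ddc, Dbh and Pnmt, had none, and neither did Slc18a2, which encodes the vesicular monoamine transporter of the brain. Of the serotonin and histamine genes, 1 of 5 had a peak, with an interval of 0.505 to 71.6% that also includes 15.9%. It was the serotonin transporter gene Slc6a4 (1407 bp, score 353.19), while Tph1, Tph2 and Hdc had none. Among 10 further members of the same gene families, such as Slc17a5, Slc17a9, Gadl1 and Csad, 0 had a peak. The interval for this list, 0 to 30.8%, also includes the 15.9% of all protein-coding genes. With 10 genes even the lowest possible count includes it, so a share below that background could not be shown. The same holds for the lists shorter than this one.

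The same 36 genes were sorted by product after the values were seen, so the split is a description with no test. Of 14 genes for plasma-membrane uptake transporters 7 had a peak, of 2 vesicle transporter genes 0, and of 20 genes for enzymes and other proteins 1, beside 15.9% of all protein-coding genes and 22.3% of those of 40 kb or longer. The catecholamine and serotonin transporters Slc6a3, Slc6a2 and Slc6a4 each had a peak over an outer end of the gene, whereas Th, Ddc, Dbh, Tph1 and Tph2 had none. The split leaves out the members, and they do not follow it. Their enzyme genes Gad1, Gad2 and Chat and vesicle transporter genes Slc32a1, Slc18a3 and Slc17a7 had peaks, while Th, Slc17a6 and Slc17a8 had none.

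**Figure D4:**
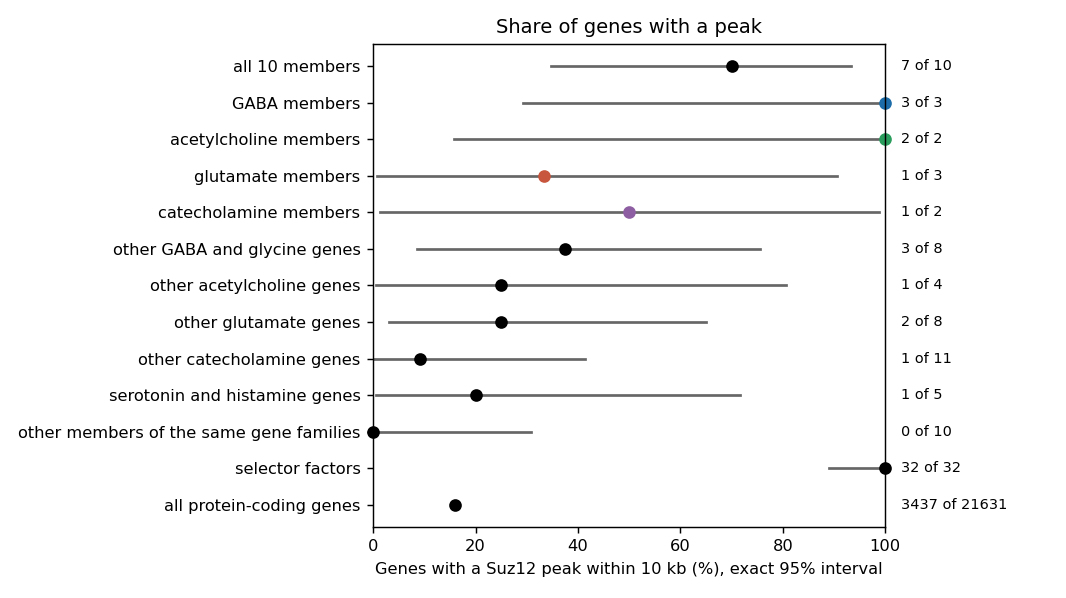
Percentage of genes with a Suz12 peak within 10 kb (points) with exact 95% binomial intervals (lines) for the members, their classes, the other lists and all protein-coding genes, with counts at the right. GABA and acetylcholine members stand at 3 of 3 and 2 of 2, the other transmitter lists at 1 of 11 to 3 of 8, and all genes at 15.9%; intervals of the classes overlap widely.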

How the data were processed

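Suz12 was mapped by chromatin immunoprecipitation and sequencing. Bowtie and MACS are named in the submitters' processing notes, with build GRCm38 (mm10). Their settings, the control and whether libraries were pooled are not stated there. The authors deposited 3373 peaks with start, end and a score of unstated scale. Positions were turned into 1-based coordinates.

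Genes came from a RefSeq table of GRCm38.p6 and gene starts from a RefSeq promoter table that matched all 10 members and 17274 of 21631 protein-coding genes. Distances run from a peak's nearest base to the gene's outer ends. They were checked with a single simulated peak per gene, placed past the end with the higher coordinate, and all 200 placed distances were recovered. Peaks on the other side, and the choice among several peaks, were not checked in this way. Shares carry exact (Clopper-Pearson) 95% binomial intervals. CG dinucleotides were counted in 300 bases per start, and the genome sequence beyond these was not used here. Named genes are all members, neighbours under or nearer to a counted peak, and up to 4 genes with a peak from each further list, by score and then width; genes without a peak are named as examples of their list, and some genes that the rule names are not reported here. Members and lists were chosen with earlier results of these data known. Alternatives changed the distance, the score threshold and the assignment of peaks to genes. Python 3.11.15, pandas 2.3.3, numpy 2.4.6, scipy 1.17.1 and matplotlib 3.10.9 were used.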

Additional observations from a re-analysis of the deposited data

How the results depend on the processing

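Of 137 alternative values, 126 stayed within 1.5 times the main value, 11 moved and 0 reversed. The values are counts of genes or bases, which have no sign, so none could reverse. The 7 members with a peak and the 32 selector genes described below each had a peak over the gene, so no distance limit could lower their counts. The count of members with a peak was 7 when the peak had to overlap the gene, within 2.5 kb, within 5 kb, within 50 kb and within 2.5 kb of a gene end. It was also 7 when a peak counted for the nearest gene only, with the main peak of Chat and Slc18a3 counted for both. It was 6 with scores at or above the list median and with scores at least 2 times the lowest, since Slc6a3 dropped out, and the catecholamine count was then 0 in both cases. Of the 36 other transmitter genes, 5 had a peak with scores at or above the list median, against 8 in the main count and 12 within 50 kb. The further members of the same gene families had 3 of 10 genes with a peak within 50 kb, against 0 within 10 kb. Of all protein-coding genes, 8.71% had a peak at or above the median score within 10 kb. With any peak the share was 15.9% within 10 kb and 27.8% within 50 kb, so the wider window raised the background as well. A pair of settings on member starts was added after seeing the data. With scores at or above the list median 5 starts lay in a peak, and with scores at least 2 times the lowest also 5, against 7 with any peak. The starts of Slc17a7 and Slc6a3 dropped out, since the peaks over them scored 263.69 and 279.83. Slc17a7 stayed among the 6 members through peaks away from its start. The share of all genes was found for any peak only, 8.57% of those with a listed start. Covered bases in the gene alone were 5293 bp at Slc17a7 and 2414 bp at Slc18a3. Counts of 2 or 3 genes a class are too small for the 1.5-fold limit to say much, and no replicate could be left out because there is 1 library.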

Other observations

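Genes for transcription factors known to select these transmitter identities in neurons all held Suz12 in this list. Of 32 such genes, 32 (exact 95% interval 89.1 to 100%) had a peak within 10 kb, against 15.9% of all protein-coding genes. Of these, 22 had one with a score of 3100 or more, against 2.02% of all protein-coding genes. The interval treats genes as independent, whereas Dlx1 and Dlx2 lie within 10 kb of the same 2 peaks. The list was written with earlier results on homeobox and neural factors known, so its count is not independent of them.

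The selectors of all 4 transmitter classes had peaks. The counts that reached 3100 stand beside 2.02% of all protein-coding genes. Of the 12 GABA selectors, 10 reached 3100, with peaks of 17322 bp at Lhx5, 11312 bp at Lhx1 and 9224 bp at Gata2, and a best score of 3147.71 near Nkx2-1. Of the 7 glutamate selectors, 5 reached it, with 9451 bp at Fezf2, 7884 bp at Tlx3, 6621 bp at Tlx1 and 5654 bp at Eomes. Of the 8 catecholamine selectors, 5 reached it, with 10904 bp at Lmx1b, 8597 bp at En1 and 6501 bp at Lmx1a. Of the 5 acetylcholine selectors, 2 reached it, Lhx8 with 6528 bp and Lhx3 with 3780 bp, while the best scores were 1610.65 at Gbx1 and 1239.75 at Mnx1. Isl1, named after its values were seen, had the lowest best score of the acetylcholine selectors, 302.11, in a peak of 1022 bp. With scores at or above the list median it dropped out, which left 4 of the 5 acetylcholine selectors and 31 of all 32. No difference between the lists was tested.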
